A study of Mus musculus with 17 samples.

Results

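Of the 66177 accessible regions measured in 3 B lineage populations, 982 were distal regions open mainly in naive B cells (nB). The other populations were antigen-specific cells of the germinal center (GCB) and plasma cells of the bone marrow (BMPC). They were chosen by their measured accessibility in Dnmt3-sufficient (C) libraries. Each lies outside annotated promoters and off chrX, chrY and chrM, has a mean of at least 5 RPPM (reads per 1e6 reads in regions) in C nB, and has at least 4 times the C GCB mean and at least 4 times the C BMPC mean. They make up 1.94% of the 50648 distal regions that the first part of this rule leaves. The same rule turned to the other cell types gave 1691 distal regions for GCB and 1856 for BMPC.

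The assay was ATAC-seq, in which a transposase cuts open chromatin and leaves sequencing adapters there. The mice carried loxP-flanked Dnmt3a and Dnmt3b, the genes of the de novo DNA methyltransferases, on a B6;129S4 background. KO mice were Dnmt3afl/fl Dnmt3bfl/fl with 1 allele that expresses Cre in the B lineage, and C mice were littermates with the same floxed alleles and no Cre. All mice were 8 to 12 weeks old. nB were sorted as B220+ GL7- Fas- from lymph nodes of naive male mice, with 3 C and 2 KO libraries of 1 mouse each. GCB were sorted as B220+ GL7+ Fas+ PE+ from lymph nodes 30 days after immunization with phycoerythrin in adjuvant, with 2 C and 4 KO libraries that each pooled 2 mice of 1 sex. BMPC were CD138+ cells from bone marrow of female mice at day 30, with 3 C libraries and 2 KO libraries that have values. nB and GCB thus share the organ, differ in immunization and differ in part in sex, since 2 of the 6 GCB pools were male. nB and BMPC differ in sex, organ and immunization. Where such a factor differs throughout, it cannot be told apart from the cell type.

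A naive B cell is a resting cell that recirculates through lymph nodes until it meets antigen. In the germinal center it divides rapidly and mutates its immunoglobulin genes, and a plasma cell has left the cycle, secretes antibody and has shut down much of the B cell program. Distal accessible regions are often enhancers, at which lineage factors such as PU.1, Spi-B, EBF1, PAX5 and E2A bind. ETS factors such as PU.1 and Spi-B bind around a GGAA core.

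The central 300 bases of 7 members are printed first, since the members held the ETS core GGAAGT more often than any other group of distal regions compared here. The sequences are the plus strand of mm9, 5′ to 3′, and capitals mark GGAAGT or its reverse complement. The first pair lies at 2 of the 10 members with the highest C nB mean, the next 4 are each the highest member with a match near a gene with several members, and the last is a highly accessible member without a match.

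Intron of Sbk1, chr7:133428988-133429287: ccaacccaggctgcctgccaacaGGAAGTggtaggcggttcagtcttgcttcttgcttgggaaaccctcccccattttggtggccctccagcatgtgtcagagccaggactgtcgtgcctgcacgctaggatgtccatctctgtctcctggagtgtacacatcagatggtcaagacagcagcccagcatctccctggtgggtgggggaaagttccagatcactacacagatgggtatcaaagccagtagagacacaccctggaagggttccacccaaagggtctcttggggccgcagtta

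Intergenic near Slc16a7, chr10:124807221-124807520: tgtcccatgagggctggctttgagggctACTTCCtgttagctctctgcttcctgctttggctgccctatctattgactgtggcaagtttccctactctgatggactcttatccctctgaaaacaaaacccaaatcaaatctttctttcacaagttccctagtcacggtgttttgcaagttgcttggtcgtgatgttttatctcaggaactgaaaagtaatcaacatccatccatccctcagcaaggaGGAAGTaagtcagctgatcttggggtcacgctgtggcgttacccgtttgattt

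Intron of Foxp1, chr6:99338755-99339054: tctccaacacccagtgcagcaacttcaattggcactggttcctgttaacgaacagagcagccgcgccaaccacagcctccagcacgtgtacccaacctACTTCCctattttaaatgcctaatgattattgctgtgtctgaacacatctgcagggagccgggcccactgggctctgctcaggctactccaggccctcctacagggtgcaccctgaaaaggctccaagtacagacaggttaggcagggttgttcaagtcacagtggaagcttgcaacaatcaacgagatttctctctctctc

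Intergenic region with Ebf1 as nearest protein-coding start, chr11:44930290-44930589: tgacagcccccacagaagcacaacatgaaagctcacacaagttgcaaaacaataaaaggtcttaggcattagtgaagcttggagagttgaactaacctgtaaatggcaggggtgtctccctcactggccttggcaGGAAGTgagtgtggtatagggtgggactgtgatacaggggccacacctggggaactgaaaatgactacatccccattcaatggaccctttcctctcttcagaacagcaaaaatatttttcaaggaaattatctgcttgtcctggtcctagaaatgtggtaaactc

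Intron of Itga9, chr9:118578847-118579146: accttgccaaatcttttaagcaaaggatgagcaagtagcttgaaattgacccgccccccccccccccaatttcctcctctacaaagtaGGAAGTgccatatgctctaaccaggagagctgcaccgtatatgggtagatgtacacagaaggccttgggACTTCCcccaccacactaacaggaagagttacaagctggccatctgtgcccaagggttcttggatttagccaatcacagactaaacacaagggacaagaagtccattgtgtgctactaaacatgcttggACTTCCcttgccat

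Intergenic with Prdm1 as nearest gene, chr10:44361473-44361772: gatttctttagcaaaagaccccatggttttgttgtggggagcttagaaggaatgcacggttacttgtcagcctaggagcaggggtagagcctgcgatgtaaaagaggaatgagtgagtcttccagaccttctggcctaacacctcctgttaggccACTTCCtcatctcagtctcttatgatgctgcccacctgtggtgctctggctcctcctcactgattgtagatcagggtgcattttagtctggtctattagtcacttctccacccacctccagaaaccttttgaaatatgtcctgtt

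Intron of Lrrc16a, with no match, chr13:24322728-24323027: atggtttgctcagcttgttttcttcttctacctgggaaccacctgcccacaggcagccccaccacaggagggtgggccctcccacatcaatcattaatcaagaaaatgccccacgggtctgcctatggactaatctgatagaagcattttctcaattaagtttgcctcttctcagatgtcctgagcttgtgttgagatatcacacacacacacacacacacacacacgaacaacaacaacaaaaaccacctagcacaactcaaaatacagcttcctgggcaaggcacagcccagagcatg

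The window near Slc16a7 held 2 matches, 1 of which belonged to the longer PU.1 or Spi-B pattern GAGGAAGT, and the Itga9 window held 3 matches. The window near Prdm1 held 1 match, which also belonged to the longer pattern.

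Each library had a sequencing depth, counted as reads in regions, between 4104875 and 6079018 in nB, between 907959 and 2280954 in GCB and between 5357687 and 8232313 in BMPC. GCB values are thus the least precise, and 3 reads, taken as the detection floor, corresponded to 1.32 to 3.30 RPPM in GCB against 0.494 to 0.731 in nB and 0.364 to 0.560 in BMPC. The floor covers counting error only. Reads on chrM took 7.43% to 10.1% in GCB and 2.56% to 4.59% in the other libraries. The cell types were checked by promoter accessibility. The promoter of Fcer2a, the low-affinity IgE receptor CD23 of mature B cells, measured 42.4 ± 5.09 RPPM (SD, n = 3) in C nB, 14.3 ± 0.316 (n = 2) in C GCB and 1.20 ± 1.02 (n = 3) in C BMPC. Over the list of naive B receptors and surface genes, 4 of 23 promoters were called higher in C nB than in C GCB. Against C BMPC 11 were called higher in C nB, and 0 were lower in either comparison. Of all 13856 promoter regions, 7.13% were called higher in C nB than in C GCB and 8.89% lower. Against C BMPC these shares were 6.38% and 11.3%. The promoter of Gcsam, a signaling adaptor of germinal center B cells, measured 0.58 ± 0.344 RPPM in C nB, 21.0 ± 6.45 in C GCB and 5.49 ± 0.769 in C BMPC. Over the germinal center list, 3 of 10 promoters were called higher in C GCB than in C nB and 1 lower, which was Bcl6, the germinal center repressor, at 53.8 ± 4.71 RPPM in C nB, 20.0 ± 2.17 in C GCB and 30.0 ± 5.44 in C BMPC. The promoter of Jchain, the joining chain of secreted antibody, was at 1.05 ± 0.293 in C nB and at 29.0 ± 3.48 in C BMPC, and also at 22.5 ± 3.89 in C GCB. Over the plasma cell list, 5 of 12 promoters were called higher in C BMPC than in C nB and 0 lower. Of the T cell markers, 8 of 20 had a promoter region, and their summed level was 147 to 158 RPPM in nB, 130 to 155 in GCB and 127 to 145 in BMPC, with none of Cd3e, Cd3d, Cd3g, Cd4 and Cd8a among them. The 8 of 16 myeloid promoters summed to 179 to 193 RPPM in nB, 195 to 265 in GCB and 240 to 269 in BMPC, and the 6 of 9 NK promoters to 10.6 to 12.4, 20.6 to 29.9 and 15.7 to 28.5 RPPM. Only 2 of 8 erythroid promoters were present, at 17.1 to 19.5 RPPM in nB and 21.3 to 34.2 elsewhere. The part of other cells in the results below was not tested.

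In C libraries, which chose the members and for which no test is given, the members were well above both other cell types and BMPC was the lower of them. The median over members of the C nB mean was 11.7 RPPM, with a range of 5.02 to 76.5. The median C GCB mean was 2.02 RPPM and the median C BMPC mean was 0.771. The C nB mean was a median of 5.61 times the C GCB mean and 14.1 times the C BMPC mean. Low levels were common among the members, with 395 of 982 under 10 RPPM and 86 at 30 RPPM or more in C nB. In 979 members every C nB library lay above every C GCB and C BMPC library. The C nB libraries differed by more than 2 times in 42 members and by more than 4 times in 5.

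The limits of the rule cut through a continuum. Just inside the limit of 5 RPPM were regions near Tas2r126 (5.02 RPPM in C nB), Bcl2 (5.02) and Adgre1 (5.03), and just outside it were regions near Nxpe5 (4.99) and Runx1 (4.96) and a region on chromosome 13 without a gene symbol (4.98). At the limit on the ratio of C nB to C GCB, regions near Hgf, 0610040J01Rik and Snx2 stood just inside at 4.01 times each, and regions near Pml, Zfp706 and Tg stood just outside, each within 0.01 below 4 times. At the limit on the ratio of C nB to C BMPC, regions near Ssbp2 (4.03), Xylt1 (4.05) and Hip1 (4.06) were inside and regions near Wls (within 0.01 below 4), Fnip1 (3.98) and Ipcef1 (3.98) were outside. Of the regions that pass all other limits, 247 had a ratio to C GCB between 3.5 and 4 and were left out, beside 216 members between 4 and 4.5. The ratio to C BMPC had only 46 and 26 regions in these intervals, so that GCB set the border of the list for most regions.

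The share of all reads in regions that fell in the members separated the 3 cell types. It was 1.52%, 1.47% and 1.49% in the C nB libraries and 1.52% in each of the KO nB libraries. In C GCB it was 0.270% and 0.227%, and in KO GCB it was 0.393%, 0.355%, 0.357% and 0.352%. In C BMPC it was 0.164%, 0.0992% and 0.105%, and in KO BMPC it was 0.159% and 0.147%. All nB libraries lay far above the others, and no GCB library overlapped a BMPC library. For the C libraries the distance of nB from the others follows from the rule. The median over other distal regions was also mostly higher in GCB, at 4.22 to 5.51 RPPM by library, than in BMPC, at 3.28 to 4.25, with a slight overlap. The number of members at 5 RPPM or more was 916 to 948 in nB, 96 to 294 in GCB and 26 to 58 in BMPC, as the plot of both measures by library shows. In bulk libraries a smaller share of cells with an open region and less opening in each cell cannot be told apart.

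**Figure D1:**
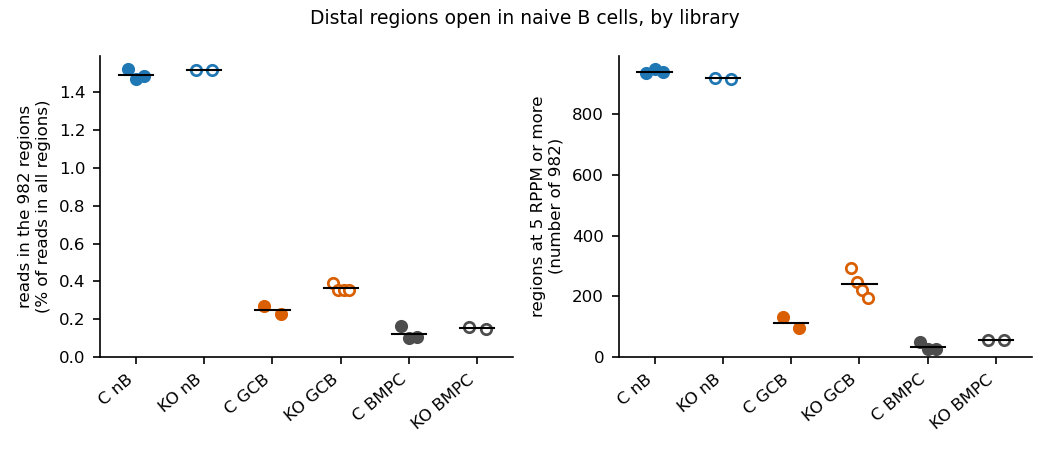
Left, share of the reads in all regions that fell in the 982 distal regions chosen for nB (vertical axis, %), and right, number of these regions at 5 RPPM or more, for 16 libraries in 6 groups; filled points are C libraries, open points KO libraries, and lines are group means. nB libraries lie between 1.47% and 1.52%, GCB libraries between 0.227% and 0.393% and BMPC libraries between 0.0992% and 0.164%; the C libraries chose the regions.

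The KO libraries took no part in the choice and gave the test of the pattern. A limma fit on log2(RPPM + 1) covered all 66177 regions, and a region was called at a Benjamini-Hochberg adjusted p of at most 0.01 and a log2 difference of at least 1. In Dnmt3-deficient cells the members were again more open in nB. Of 982 members, 751 were called higher in KO nB than in KO GCB and none was called lower, against 6.63% of all regions called higher. At an unadjusted p under 0.05, 928 members were higher and 0 lower, and of all 66177 regions 14539 were higher and 19143 lower. Against KO BMPC, 901 members were called higher and 0 lower, where 14.8% of all regions were called higher. Both calls were made for 715 members, against 3.55% of all regions. Among the 21152 distal regions with a C nB mean of at least 5 RPPM, members included, 15.2% were called above KO GCB, 34.5% above KO BMPC and 9.58% above both.

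The KO nB mean was above the KO GCB mean in all but 3 members and above the KO BMPC mean in all but 1. The median log2 difference was 1.76 from KO GCB and 2.64 from KO BMPC, while the medians over all regions were -0.12 and -0.08. As a ratio of means, KO nB was a median of 4.01 times KO GCB and 13.8 times KO BMPC. Both KO nB libraries lay above all 6 KO GCB and KO BMPC libraries in 929 members, and this held for 16.3% of all regions. With a single KO nB library the test lost many calls. Without KO nB replicate 1, 322 members were called above KO GCB and 296 above both, and without replicate 2 these numbers were 347 and 317. The median difference from KO GCB was then 1.77 in either case.

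**Figure D2:**
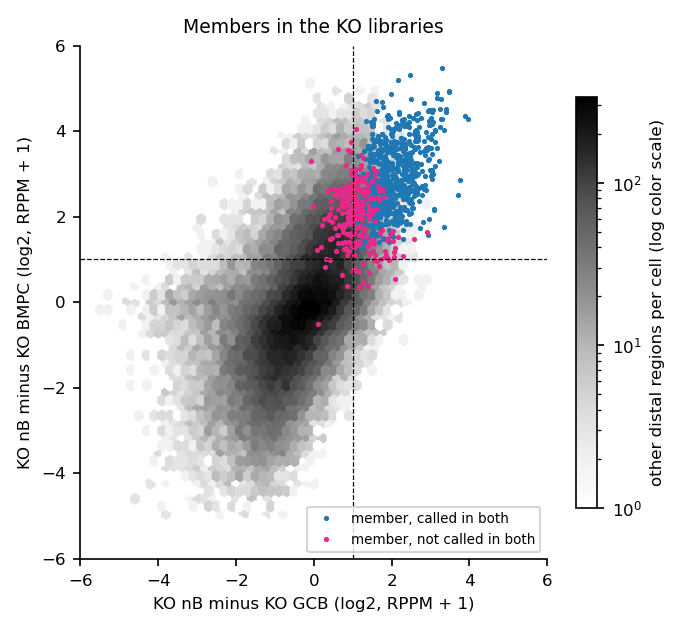
Difference between KO nB and KO GCB (horizontal axis) and between KO nB and KO BMPC (vertical axis), both on the log2(RPPM + 1) scale, for each member (points, blue where called in both comparisons and pink where not) over the number of other distal regions (gray, log color scale). The dashed lines mark a log2 difference of 1, and the members center on 1.76 and 2.64, in the upper right of the cloud.

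Between the KO libraries, a comparison added after the data were seen, 338 members were called higher in GCB than in BMPC, or 34.4%, with 17.8% of all regions and 27.8% of distal regions with a C nB mean of at least 5 RPPM called in this direction, and 4 were called lower, with 10.5% of all regions. The median log2 difference was 0.95 over the members and 0.03 over all regions. The 4 members higher in BMPC lay near Slc16a7, Mllt3 and Pcdh9 and, without a gene symbol, on chromosome 3. The region of 789 bp between 87328587 and 87329375 on chromosome 4, nearest to Mllt3, a reader of acylated histones, measured 25.7 and 23.2 RPPM in KO nB, 7.71, 6.36, 5.26 and 2.10 in KO GCB and 13.6 and 20.0 in KO BMPC. Its KO BMPC values thus came close to KO nB, from which they did not differ past the threshold (log2 difference 0.54 ± 0.38, SE, adjusted p = 0.27).

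Applied to the KO means, the rule gave 674 regions, of which 454 were members. That is 46.2% of the members and 67.4% of the regions so chosen. Of the members, 910 had a KO nB mean of at least 2 times KO GCB and 492 a mean of at least 4 times.

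The 10 members with the highest C nB mean were all called above both KO GCB and KO BMPC. The highest lay in an intron of Sbk1, a kinase gene, at chr7:133428724-133429551, and its sequence is the first printed above. It measured 81.1, 72.0 and 76.3 RPPM in C nB, 77.5 and 66.3 in KO nB, 13.6 and 10.3 in C GCB, and 12.1, 8.27, 11.8 and 10.5 in KO GCB. In BMPC it measured 10.9, 15.0 and 11.8 RPPM in C and 10.3 and 13.1 in KO, so that GCB and BMPC overlapped and nB stood apart. The log2 difference of KO nB was 2.65 ± 0.20 (SE) from KO GCB (adjusted p = 1.4e-08) and 2.53 ± 0.24 from KO BMPC (adjusted p = 1.0e-07).

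In the intron of Lrrc16a, which encodes an actin capping regulator, at chr13:24322299-24323455, C nB measured 77.2, 73.3 and 71.7 RPPM and KO nB 87.8 and 76.6. C GCB measured 5.28 and 4.68 RPPM, KO GCB 8.81, 6.36, 7.01 and 7.69, and BMPC 0.747 to 1.56 across its 5 libraries. The KO nB level was 3.30 ± 0.24 above KO GCB and 5.48 ± 0.28 above KO BMPC on the log2 scale, and the latter was the largest such difference among the members (adjusted p = 7.4e-09 and 1.0e-10). Here the 3 cell types did not overlap and followed the order nB, GCB, BMPC.

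Near Slc16a7, a monocarboxylate transporter gene, 2 of the highest members lay 41388 and 60000 bp from the annotated transcript start. The first, at chr10:124806980-124807761, carries the PU.1 or Spi-B pattern printed above and measured 61.4 and 67.5 RPPM in KO nB, 4.41, 2.55, 4.38 and 2.80 in KO GCB and 2.31 and 2.05 in KO BMPC. The second, at chr10:124825592-124826947, measured 61.2 and 68.9 RPPM in KO nB and 2.20, 2.55, 5.70 and 7.69 in KO GCB, but 15.1 and 7.47 in KO BMPC. It was 1 of the 4 members called higher in KO BMPC than in KO GCB. A region near Plaur, the urokinase receptor gene, had 57.4 and 49.6 RPPM in KO nB, 3.50 to 7.89 in KO GCB and 13.4 and 8.96 in KO BMPC.

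The other members among the 10 highest had no gene symbol in the table in 4 cases, on chromosomes 3, 9, 10 and 13, and Tmcc3 as the nearest gene in 1 case. Over the 10, the log2 difference of KO nB from KO GCB ranged from 1.97 to 3.88 and from KO BMPC from 2.18 to 5.48. The lowest of them against GCB was the region on chromosome 3, at 58.1 and 70.8 RPPM in KO nB and 15.4, 24.2, 11.8 and 13.3 in KO GCB, and its KO BMPC libraries were at 0.850 and 1.68.

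**Figure D3:**
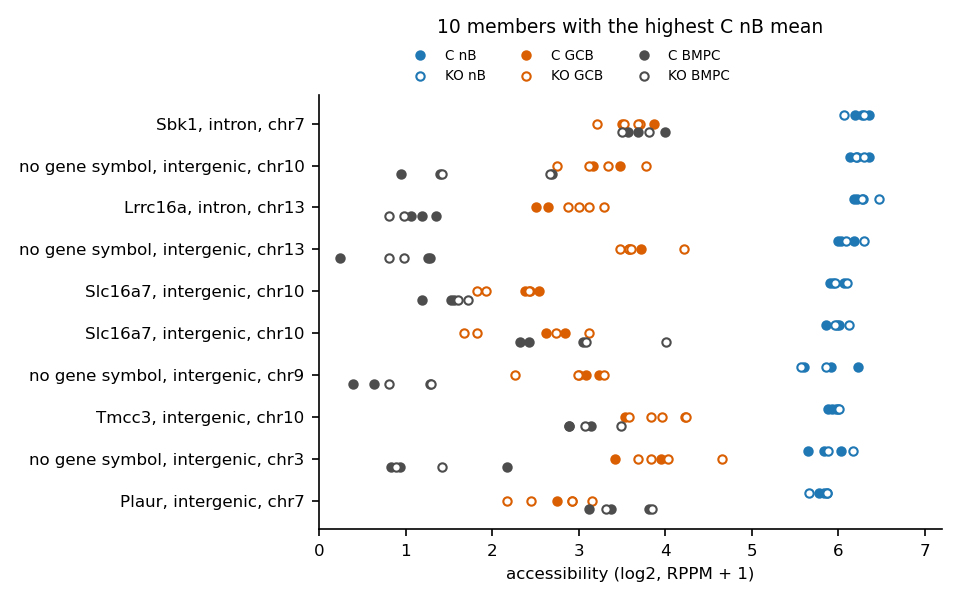
Accessibility on the log2(RPPM + 1) scale (horizontal axis) of the 10 members with the highest C nB mean (rows, named by nearest gene, place and chromosome) in each of 16 libraries; blue is nB, orange GCB and gray BMPC, filled C and open KO. The nB points stand apart from all others in each row, and GCB and BMPC overlap in some rows, such as Sbk1.

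With the table's nearest gene, 845 members had a symbol and belonged to 582 genes, of which 426 had 1 member and 2 had 10. Of the 982 members, 463 or 47.1% lay within 50 kb of another member, and for the GCB and BMPC regions chosen by the same rule this share was 38.7% and 48.4%. The largest group by this distance held 10 members over 150898 bp in introns of Foxp1, the forkhead factor of follicular B cells. Next came 8 members over 75012 bp in Celf4, an RNA-binding protein gene, and 8 members over 90677 bp with Ebf1 as the nearest coding start. By number, chromosome 11 held the most members, 93, and as a share of a chromosome's own distal regions chromosome 13 was highest, at 3.53%.

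At Foxp1, which had 95 distal regions in all, the KO nB means of the 10 members ranged from 5.62 to 37.0 RPPM, the KO GCB means from 2.30 to 16.7 and the KO BMPC means from 0.681 to 7.71. Of these members 7 were called above KO GCB and 8 above KO BMPC. The shares of all 982 members so called were 76.5% and 91.8%, which is the reference for this gene and those below. The highest, at chr6:99338475-99339334, measured 39.2, 32.6 and 31.5 RPPM in C nB and 41.8 and 32.3 in KO nB. In GCB it measured 4.84 and 7.96 RPPM in C and 20.9, 11.5, 19.7 and 14.7 in KO, where the 2 genotypes did not overlap. The rule asked for low values in these C GCB libraries, so this difference is only a description. KO nB exceeded KO GCB there by 1.13 ± 0.23 on the log2 scale (adjusted p = 0.00076). The Foxp1 promoter region with the highest mean had 27.6 ± 3.52 RPPM in C nB, 18.9 ± 3.73 in C GCB and 31.8 ± 2.69 in C BMPC and was called in neither comparison.

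The 8 members in the group near Ebf1, an essential factor of B cell commitment, were all called above both KO GCB and KO BMPC. The highest of them, at chr11:44930056-44930823, had a KO nB mean of 31.2 RPPM, a KO GCB mean of 4.55 and a KO BMPC mean of 0.681. Another, at chr11:44880058-44880566, measured 21.2, 16.4 and 21.8 RPPM in C nB and 23.0 and 19.9 in KO nB, 0.877 to 2.80 in the GCB libraries and 0 to 0.520 in the BMPC libraries. The Ebf1 promoter was accessible in all 3 cell types, with 67.4 ± 3.26 RPPM in C nB, 29.5 ± 1.96 in C GCB and 45.1 ± 3.74 in C BMPC, and it was called higher in C nB than in C GCB alone.

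Chrm3, a muscarinic receptor gene, had 10 intronic members of 20 distal regions in all, with KO nB means from 3.96 to 35.5 RPPM. Their KO BMPC means lay between 0 and 0.430 RPPM, and all 10 were called above KO BMPC and 8 above KO GCB. Itga9, an integrin gene, had 7 intronic members of 14 distal regions, with KO BMPC means from 0.154 to 0.401 RPPM, and 7 and 6 of them were called. The highest Itga9 member, at chr9:118578685-118579307, whose window with 3 ETS cores is printed above, measured 22.0 and 30.1 RPPM in KO nB, 2.20, 3.18, 3.95 and 3.50 in KO GCB and 0.121 and 0.373 in KO BMPC. The other genes among the 10 with the most members were Ldlrad3 with 6 members, Dyrk2 with 6, 5031425F14Rik with 6, Mef2c with 5 and Btg1 with 5, besides Celf4 and Prdm1. Mef2c and Btg1 were taken from 7 genes tied at 5 members by their summed C nB mean. The members of Mef2c, a factor of B cell activation, lay 421087 to 610049 bp from its start.

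Prdm1, which encodes Blimp-1 and drives plasma cell differentiation, was the nearest gene of 6 intergenic members between chr10:44315841 and 44396650, at 67533 to 147906 bp from the transcript start. Of these, 5 were called above KO GCB and 5 above KO BMPC. The highest measured 24.1, 21.5 and 21.0 RPPM in C nB, 25.8 and 22.0 in KO nB, 1.91 to 3.95 in the GCB libraries, and 2.01 to 7.77 in the BMPC libraries. A neighbor at chr10:44355868-44356294 measured 24.0 and 18.7 RPPM in KO nB, 1.10, 1.91, 2.19 and 2.80 in KO GCB and 0.850 and 0.933 in KO BMPC. The Prdm1 promoter measured 44.5 ± 6.17 RPPM in C nB, 31.2 ± 3.10 in C GCB and 65.6 ± 0.993 in C BMPC. C nB was thus above C GCB (log2 difference 0.49 ± 0.15, adjusted p = 0.0089) and below C BMPC (-0.56 ± 0.13, adjusted p = 0.00073), and neither difference reached the 1 needed for a call.

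**Figure D4:**
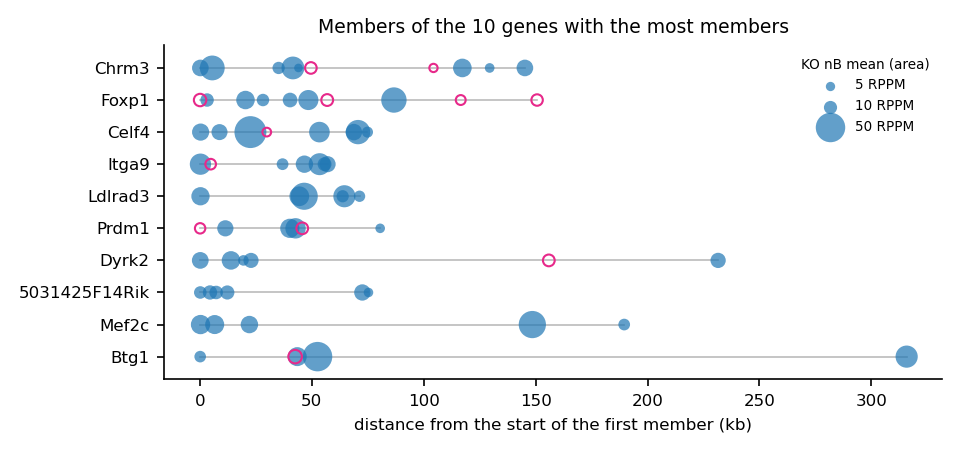
Members of the 10 genes with the most members (rows), placed by distance in kb from the start of the first member of that gene; the area of a point is the KO nB mean in RPPM, filled blue where the member was called above both KO GCB and KO BMPC and open pink where not. The Chrm3 and Foxp1 rows hold 10 members each, and the Prdm1 row holds 6.

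Members were next read by gene lists for functions of resting B cells, which had been drawn up with earlier results of these data known. Of all 982 members, 76.5% were called above KO GCB and 91.8% above KO BMPC, which is the reference for the counts by list. For positioning and recirculation, 5 of 12 genes had a total of 8 members, and 7 of these were called above KO GCB and 8 above KO BMPC.

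Ccr7, the receptor for T zone chemokines, had 2 members. The higher measured 29.4 and 28.5 RPPM in KO nB, 5.09 to 11.8 in KO GCB and 6.44 and 8.59 in KO BMPC. At Cxcr5, the receptor that leads B cells into follicles and that germinal center cells keep, the member at chr9:44341086-44341702 measured 29.3 and 27.7 RPPM in KO nB, 14.3, 5.73, 5.26 and 6.99 in KO GCB and 2.19 and 0.933 in KO BMPC. S1pr1, the egress receptor, and Itga4, an integrin subunit, had 1 member each, and the Itga4 member was not called against KO GCB, at 10.7 and 14.0 RPPM in KO nB and 5.59 to 7.64 in KO GCB (log2 difference 0.85 ± 0.29, adjusted p = 0.024).

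Of 25 receptor and surface genes of naive B cells, only Cd83, Cd55 and Cd38 had members, 5 in all, and all 5 were called in both comparisons. The Cd83 member, at chr13:43993759-43994494 and 113204 bp from the transcript start, measured 57.6 and 52.0 RPPM in KO nB, 8.81, 10.2, 10.5 and 7.69 in KO GCB and 2.67 and 1.49 in KO BMPC. Among 40 regulators of the B lineage and of quiescence, 15 had members, 39 in all, of which 30 were called above KO GCB and 36 above KO BMPC. Besides Foxp1, Mef2c and Ebf1 these lay near Btg1, an antiproliferative gene, Bcl2, a survival gene, and Lef1, a Wnt pathway factor. The highest Btg1 member measured 52.3 and 47.6 RPPM in KO nB, 13.2, 8.27, 10.5 and 14.7 in KO GCB and 7.17 and 6.91 in KO BMPC. The highest Bcl2 member, in an intron, measured 30.1 and 32.3 RPPM in KO nB, 4.19 to 9.55 in KO GCB and 6.32 and 6.35 in KO BMPC.

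For B cell receptor signaling, 3 of 24 genes had members. These were Bank1 with 1, Syk with 2 and Nfkb1 with 1, and all 4 were called above KO GCB and 3 above KO BMPC. The exception was at Nfkb1, the NF-kappaB subunit gene, where KO BMPC measured 9.23 and 9.33 RPPM, KO nB 17.9 and 14.2 and C BMPC 2.55 to 3.38. Of the germinal center and plasma cell lists, Mybl1 and Prdm1 were the only genes with members, 1 of 12 and 1 of 14. In the marker lists of other cells, 1 of 20 T cell genes (Il7r), 1 of 16 myeloid genes (Adgre1), 0 of 9 NK genes and 1 of 8 erythroid genes (Hbb-b1) had members. Genes differ in their number of distal regions, and the share of all genes with a member was not computed. The lists can therefore not be ranked by these counts.

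Not all members were called above both KO GCB and KO BMPC. While 715 were, 186 were called above KO BMPC only, 36 above KO GCB only and 45 above neither. The exceptions described next were picked out after their values were seen. At Hbb-b1, a beta globin gene, the member covers annotated 3′ UTR sequence. Whether reads of near-identical globin genes were split there was not tested. The member measured 12.4, 13.8 and 0.186 RPPM in the 3 C nB libraries, so that 1 mouse stood far from the other 2. KO nB measured 14.8 and 13.8 RPPM, C GCB 1.32 and 0.937, and KO GCB 8.81, 29.9, 9.21 and 20.3, which left no difference between KO nB and KO GCB past the threshold (log2 difference -0.07 ± 0.38, adjusted p = 0.90). A member in an intron of Sox5 measured 5.26 and 3.94 RPPM in KO nB and 3.95 to 5.51 in KO GCB (log2 difference -0.03 ± 0.35, adjusted p = 0.96). One in an intron of Bre measured 9.26, 2.64 and 4.28 RPPM in C nB but 0.493 and 1.57 in KO nB, and it was the only member with a KO nB mean below the KO BMPC mean (log2 difference -0.52 ± 0.46, adjusted p = 0.39).

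Promoters, which the rule left out, were compared for the genes nearest to members. On chromosomes 1 to 19 there were 667 such promoter regions. Their accessibility was more often called higher in C nB than in C GCB, with 137 called higher and 23 lower, or 20.5% and 3.45%, against 7.13% and 8.89% of all 13856 promoter regions. Between C nB and C BMPC, 146 were higher and 35 lower, or 21.9% and 5.25%, against 6.38% and 11.3%. Most promoters were thus not called, and the medians of the log2 difference were 0.48 and 0.13 over these promoters and 0.19 and -0.10 over all promoters. These C libraries also chose the members. In KO libraries 138 were called higher in nB than in GCB and 21 lower, or 20.7% and 3.15%, against 6.91% and 9.38% of all promoter regions. Between KO nB and KO BMPC, 123 were higher and 41 lower, or 18.4% and 6.15%, against 5.29% and 10.4%.

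The promoters of named genes fell into several kinds. The promoters of Ccr7, at 60.0 ± 3.63, 15.3 ± 3.57 and 15.8 ± 0.663 RPPM in C nB, C GCB and C BMPC, Lef1, at 26.3 ± 1.08, 8.61 ± 0.258 and 7.18 ± 1.22, and Plaur, at 18.8 ± 4.15, 1.79 ± 1.20 and 2.69 ± 1.12, were called higher in C nB in both comparisons. The Lrrc16a promoter was called only against GCB, at 31.0 ± 4.30, 6.34 ± 0.359 and 15.4 ± 3.87 RPPM. The Itga9 promoter, at 12.2 ± 1.22, 8.98 ± 4.09 and 2.23 ± 0.226 RPPM, was called only against BMPC. The Sbk1 promoter was at 70.4 ± 4.51 RPPM in C nB and 73.6 ± 1.64 in C BMPC although its intronic member differed between them, and the Tmcc3 promoter was higher in C BMPC, at 60.1 ± 5.28 against 27.2 ± 1.74 RPPM. By list, 4 of 10 promoters of positioning genes were called higher in C nB than in C GCB and 3 of 10 higher than in C BMPC, with 0 lower. Of 39 promoters of lineage and quiescence regulators, 5 and 6 were higher and 0 lower.

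Between genotypes, 0 members were called in nB in either direction by limma in the fit of all 16 libraries, with 1 member higher and 4 lower in KO at an unadjusted p under 0.05. Over all 66177 regions, 0 were called in nB in either direction too, with 417 higher and 690 lower in KO at an unadjusted p under 0.05. Because C values chose the members, differences from C are a description here. In GCB, 3 members were called higher in KO and 0 lower, where 0.0317% of all regions were called higher. This count was 0 with a pseudocount of 5 RPPM, with edgeR's quasi-likelihood test, and without C GCB replicate 2, either KO nB library or KO BMPC replicate 1. It was 9 without C GCB replicate 1 and 1 without C nB replicate 1, C nB replicate 2 or KO GCB replicate 1. They lay near Pitpna and Dnah17 and, without a symbol, on chromosome 13. The member in an intron of Pitpna, a phosphatidylinositol transfer protein gene, measured 1.32 and 1.87 RPPM in C GCB and 7.71, 6.36, 6.58 and 6.29 in KO GCB. In BMPC 1 member was called higher in KO, with 0.0907% of all regions, at a region of chromosome 13 without a symbol that measured 2.99, 1.82 and 1.09 RPPM in C BMPC and 12.1 and 12.9 in KO BMPC. It measured 25.5 and 19.1 RPPM in KO nB. The call was lost without either KO BMPC library.

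Over the members, the median log2 difference of KO from C was 0.02 in nB, 0.33 in GCB and 0.10 in BMPC, and over all regions it was -0.01, 0.03 and 0.03. In 190 members every KO GCB library exceeded both C GCB libraries and in 9 members every one was below them, or 19.3% and 0.916%, against 7.47% and 5.52% of all regions. The rule asks for low C GCB values. Over the 674 regions that pass the same rule on KO libraries, where low KO GCB values were asked for, the median was -0.03 and these shares were 5.19% and 6.23%. Of these 674 regions, 454 are members. The part of the choice in these differences was not tested.

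In position the members lay farther from genes than other distal regions on chromosomes 1 to 19. Their median distance to a transcript start was 29915 bp, against 17524.5 bp for the 49406 other distal regions and 14899.5 bp for those with a C nB mean of at least 5 RPPM. Distances beyond 100 kb were found for 157 members or 15.99%, against 7.58%, and 517 members or 52.6% were intergenic, against 44.3%. The regions chosen by the same rule for GCB and BMPC lay a median of 23685 and 16609 bp from a start. The members were 523.5 bp wide at the median. Their central 300 bases held a median of 46.0% G and C and 3 CpG, where other distal regions held 48.0% and 4.

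Among the 16 patterns searched, the ETS core GGAAGT had the largest difference in share, in percentage points, between the members and other distal regions. By ratio, the longer PU.1 or Spi-B pattern, the CTCF pattern and the octamer ATGCAAAT differed more. Searched on both strands of the central 300 bases, the ETS core was found in 49.9% of members and in 31.3% of other distal regions. Its share was 37.5% in those with a C nB mean of at least 5 RPPM. It was found in 26.5% of the GCB regions and in 19.1% of the BMPC regions. The longer PU.1 or Spi-B pattern GAGGAAGT, which always contains the ETS core, was found in 15.5% of members and 7.75% of other distal regions. Its share was 10.5% in the other distal regions with a C nB mean of at least 5 RPPM. It was found in 7.25% of GCB regions and 2.26% of BMPC regions. ETS matches were most frequent near the middle of the members. There were 3.31 matches per kb within 30 bp of the center and 1.21 per kb between 120 and 150 bp from it, and in other distal regions these densities were 1.64 and 0.918. The share with an ETS core was 47.6%, 50.9% and 51.2% in the lowest, middle and highest of 3 classes of members by KO nB mean.

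The RUNX core TGTGGT was found in 35.2% of members and 27.5% of other distal regions, and in 22.5% of the GCB regions and 32.3% of the BMPC regions. Over whole regions it was in 48.5% of members and 53.0% of the BMPC regions, so it was not particular to the members. The ETS-IRF composite GGAANNGAA, which can overlap the ETS core, was in 16.3% of members and 12.6% of other distal regions. Several patterns were less frequent in the members. The CTCF pattern CNAGNNGGC, a short part of the site of the insulator protein, was found in 10.7% of members and 21.1% of other distal regions. It was also less frequent in the GCB regions, at 14.7%, and in the BMPC regions, at 14.7%. The E2A core CACCTG was in 19.04% of members and 28.5% of other distal regions and the E2A core CAGCTG in 16.7% and 21.7%. Of the BMPC regions, 48.1% and 33.5% held these cores. The octamer ATGCAAAT, bound by Oct-2, was in 2.75% of members, 4.65% of other distal regions and 14.7% of the GCB regions. The EBF1 pattern CCCNNGGG was in 7.43% and 9.79%, and PAX5 AGCNTGAC in 5.60% and 4.27%. For the other patterns searched, FOXO, KLF, IRF, AP-1, MEF2 and NF-kappaB, the members and other distal regions held 5.09% and 4.53%, 11.7% and 11.1%, 13.8% and 14.7%, 9.78% and 10.4%, 1.73% and 2.17%, and 2.65% and 2.06%. A match describes the letters in the window and not a bound factor.

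**Figure D5:**
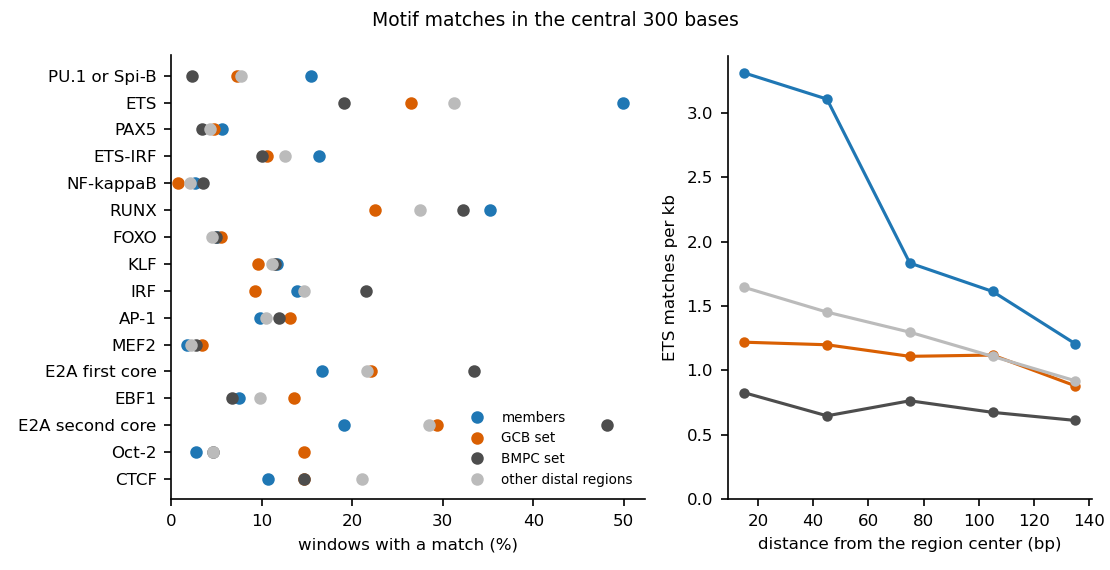
Left, share of the central windows of 300 bases with at least 1 match to each of 16 motif patterns on either strand (horizontal axis, %), for the members (blue), the distal regions chosen by the same rule for GCB (orange) and BMPC (dark gray), and all other distal regions (light gray), ordered by the ratio of members to other distal regions; right, ETS matches per kb by distance from the region center, in the same colors. The ETS share is 49.9% in members and 31.3% in other distal regions, and the density falls from 3.31 to 1.21 per kb away from the center of the members.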

How the data were processed

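ATAC-seq values of 16 libraries were used. The labels list 17 samples, and 1 KO BMPC sample without a column was not analysed here. The authors mapped reads to mm9 with Bowtie, called peaks with MACS2 and took the union over samples. The submitters' processing notes list Bowtie 1.1.1, Picard 1.127, MACS2 2.1.0.20140616 and edgeR 3.12.1 without their roles, and the study's methods name other Bowtie and MACS2 versions. The deposited values are RPM over reads in regions (RPPM). All 1058832 values were whole multiples of 1 read of their library within a tolerance of 1e-06 reads, or 100% of them, and these recovered reads entered the count tests. The 54 columns of the authors' own 9 comparisons (fold changes, p-values and FDR) were not used.

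Groups came from the labels. The members, gene lists and motifs were chosen with earlier results of these data known. The test of the members was limma 3.58.1 (R 4.3.3) on log2(RPPM + 1) with a variance trend, on the 8 KO libraries alone and adjusted over 66177 regions. Comparisons with C libraries used a fit of all 16. p-values measure the spread between libraries, of which GCB libraries are pools. The KO fit was tested on simulated reads with a fixed dispersion. It recovered 88.5% of 200 regions raised 4 times in KO nB against KO GCB, and 62.5% of 200 against KO BMPC. In each case 0 unchanged regions were called. Alternatives were other pseudocounts (0.1 and 5), filters, TMM, quantile normalization, edgeR 4.0.16 quasi-likelihood and DESeq2 1.42.0 on recovered reads, and each library left out. A contrast of KO GCB with KO BMPC, the rule applied to KO means beside the KO and C difference, and the fit of GCB pools F2 and M1 alone were added after the data were seen.

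Sequences were read from mm9 with pysam 0.24.0 on chromosomes 1 to 19. Genes are the table's nearest transcript, and protein-coding starts of GENCODE vM1, on the same build, were used where it gives no symbol. The regions and genes named are the 10 members with the highest C nB mean, the 10 genes with the most members, up to 4 genes per list with the highest member, regions at each limit of the rule, and the promoters of these genes, for each of which the promoter region with the highest mean was taken. Regions named beyond these were chosen after their values were seen, and results for some named genes are not reported here. Python 3.11.15, numpy 2.4.6 and pandas 2.3.3 handled the tables and matplotlib 3.10.9 the plots.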

Additional observations from a re-analysis of the deposited data

Results flagged for a closer look

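Among 15 values tested for a library that stands apart from the other 3 of the KO GCB group, the only group of 4, 2 did so. The share of reads in the members was 0.393% in KO GCB replicate 1 against 0.352% to 0.357% in the others, and this replicate also had the fewest reads in regions (907959). The member on chromosome 13 between 52178922 and 52179873, without a gene symbol, measured 17.5 RPPM in KO GCB replicate 3 against 10.2 to 11.2 in the others. Chance alone marks about 1 in 20 such groups.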

How the results depend on the processing

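No member was called lower in KO nB than in KO GCB or KO BMPC under any alternative run. Counts of members called above KO GCB ranged from 322 to 803, above KO BMPC from 687 to 936 and above both from 296 to 777 when 1 KO library was left out, with the lowest values without a KO nB library, which leaves 1 sample assumed to vary like the other groups. With a pseudocount of 0.1 RPPM 472 members were called above both, with a pseudocount of 5 RPPM 531, with edgeR's quasi-likelihood test 888 and with DESeq2 735. Quantile normalization moved the median of all regions in KO nB against KO GCB from -0.12 to 0.07 and gave 844 members above KO GCB, and TMM gave 804.

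The number of members was 1766 at a fold of at least 3, 585 at a fold of at least 5 and 587 at a C nB mean of at least 10 RPPM. It ranged from 906 to 1285 when 1 C library was left out, both extremes coming from the C GCB libraries: without C GCB replicate 1 855 members remained among 1285 regions, and without C GCB replicate 2 751 among 906. Promoters of nearest genes called above C BMPC fell to 92 with a pseudocount of 5 RPPM, and ranged from 133 to 154 with 1 library left out.

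For KO against C, the counts are small. Members called higher in KO GCB numbered 0 with a pseudocount of 5 RPPM and 0 with the quasi-likelihood test, and ranged from 0 to 9 with 1 library left out. Members called higher in KO BMPC numbered 2 with a pseudocount of 5 RPPM and 19 with the quasi-likelihood test, and ranged from 0 to 4 with 1 library left out. Members called lower numbered 1 in KO nB with the quasi-likelihood test, and 1 in KO BMPC with a pseudocount of 0.1 RPPM and 1 with the quasi-likelihood test. With a replicate block for the GCB pools F2 and M1, whose names occur in both genotypes, 2 members were higher in KO GCB, as without the block in these 4 libraries. The labels do not say that these numbers pair the samples, and deviations of the F2 pools correlated at 0.0628 across regions.

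Over whole regions in place of the central 300 bases, the ratio of shares, members over other distal regions, moved from 1.60 to 1.44 for ETS, from 0.507 to 0.654 for CTCF and from 0.669 to 0.852 for the second E2A core, and the cause was not tested. The whole-region ETS share was 58.55% in members. In the other distal regions with a C nB mean of at least 5 RPPM it was close to that, at 53.99%. The median widths of these sets were 523.5 and 610 bp. At the depth of the GCB libraries, 219 to 573 members were at or under 3 reads, so that lower levels were not resolved.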
